A study of Mus musculus with 4 samples.

Results

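The sperm tail is built around an axoneme, the microtubule skeleton that beats in cilia and flagella, and the genes described here encode its dynein motors, the factors that assemble those motors, the tektins and the radial spokes. They were taken by symbol, as every row whose gene name starts with Dnah, Dnaic, Dnaaf, Tekt, Rsph or Cfap, together with Dnal1 and Dnali1, which gave 28 of the 23420 named genes. The table uses older symbols, so the heavy chains stand under Dnahc in place of Dnah, no row starts with Cfap, and no row is named Dnal1. Genes listed under an older name are described separately further on. All 28 genes lie on autosomes.

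RNA was measured in pachytene spermatocytes, the meiotic cells that precede the round spermatids, sorted by FACS from wild type adult C57BL/6 males of 23 weeks. The sorted cells were kept in short-term culture for 24 h with either DMSO, the solvent (Ctrl), or AZ20 at 10 μM, which inhibits the DNA damage kinase ATR (AZ20). Each condition had 2 libraries of 15000 cells each. Per the study's methods, both treatments received cells from the same mouse, so libraries with the same replicate number form a pair. The comparison asks what loss of ATR activity does to the transcriptome of cells that already silence their sex chromosomes, a silencing that depends on ATR signalling. All 4 libraries were cultured, so no value here describes freshly isolated cells.

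An axoneme consists of outer microtubule doublets around a central pair. Outer and inner dynein arms slide the doublets, radial spokes pass signals from the central pair to the arms, and tektins lie inside the doublet wall. Dyneins are pre-assembled in the cytoplasm by dedicated factors before they enter the flagellum. In the male germ line the flagellum grows out in spermatids, after meiosis, and many transcripts of post-meiotic structures are already made in spermatocytes. In ciliated tissues, regulatory factor X (RFX) proteins bind X-box motifs in promoters of ciliary genes, and FOXJ1 is a master regulator of motile cilia.

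Values are in TPM, the usual unit of transcript abundance, which are scaled to gene length and to the total of each library. Levels can thus be set side by side between genes, within the limits of the library method. Per the study's methods, libraries were made with a low-input kit. Rsph1 is 1163 bases long and Dnahc5 15616, and whether long and short transcripts were recovered equally was not tested. The depth recovered from the values was 14867018 reads for Ctrl replicate 1 and 16848808 for Ctrl replicate 2. For AZ20 it was 21425767 and 19639636 reads, respectively. Markers of other cell types were checked because bulk RNA cannot tell fewer cells of a type from less RNA per cell. Of 13 listed pachytene markers 12 had a row, and these were all above 1 TPM in Ctrl and summed to 10354 to 10750 TPM. The 10 Sertoli cell markers summed to 2.59 TPM or less in every library, with 5 at 0 throughout, and the 7 Leydig cell markers to 2.31 TPM or less, with 5 at 0 throughout. Macrophage markers summed to 0.695 to 2.26 TPM, peritubular myoid markers to 2.18 to 4.60 TPM and spermatogonia markers to 8.26 to 21.2 TPM. The spermatogonia sum came mostly from Uchl1, at 7.6 to 20.1 TPM, while Stra8 and Dmrt1 were at 0 in every library. The 16 spermatid markers summed to 437 and 182 TPM in Ctrl and to 897 and 295 TPM in AZ20. They were therefore higher in the replicate 1 library of both conditions, for 14 of 16 genes in Ctrl and 15 of 16 in AZ20, and none of the 16 was at 0 in every library. Whether spermatid RNA contributes to the levels below was not tested. Among 5 markers of multiciliated epithelium, Gmnc and Foxn4 were at 0 in every library, and the sum of 7.51 to 15.7 TPM came almost entirely from Ccdc67 (now Deup1).

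Promoter windows of the genes were searched for short motifs. RefSeq windows on GRCm38.p6, running from 250 bases before to 50 bases after the transcript start, were found for 25 of the 28 genes. A gene was counted once if any of its windows held a match. The RFX core site GTTGCC, of which an X-box holds a pair, was searched on both strands and was present in 9 of the 25 genes (36.0%). Over all 27025 genes with a window the share was 14.1%, and over those above 1 TPM in Ctrl it was 16.1%. The full X-box was searched only as a pattern of fixed length, and its matches overlap the core site. That pattern was present in 2 of 25 (8.0%) against 1.55% of all genes with a window. Opposing core-like sequences at a shorter spacing were not counted. Such pairs are seen at the Tekt2, Dnaic2 and Rsph3b sites below and elsewhere in the Dnahc7a and Dnahc7b windows. The share therefore does not count every paired site. The FOXJ1 site GTAAACA was present in 2 of 25 (8.0%) against 4.05%, and the cAMP response element TGACGTCA in 1 of 25 (4.0%) against 2.03%. These are letter matches in short windows. Among the 5 tektins, Tekt1, Tekt2 and Tekt4 held the core site, Tekt3 held only a FOXJ1 site, and Tekt5 held no match. Tekt1 and Tekt2 have more than 1 window, which gives a match more places to occur. The sites below are shown because they are the 2 X-box matches and the core sites closest to the start among expressed genes, with the match in capitals and each sequence read on the strand of its gene.
Tekt4, X-box, chr17:25471582-25471611, plus strand: tatacaatGTTCCTTAGGCAACcaggaacc
Dnaaf2, X-box, chr12:69198425-69198454, minus strand: tcccaggcGTTACTATGGCAACaaagcacg
Tekt1, core site, chr11:72361884-72361905, minus strand: tccgtccgGTTGCCatagagac
Tekt1, core site, chr11:72361904-72361925, minus strand: ctaactagGGCAACgttgcgtc
Tekt2, core site, chr4:126325697-126325718, minus strand: ggttgctcGGCAACcagagccg
Dnaic2, core site, chr11:114727385-114727406, plus strand: ggttgctaGGCAACtggtaaac
Rsph3b, core site, chr17:6948327-6948348, minus strand: ggttgctcGGCAACcgatgggg
The near-identical genes Dnahc7a and Dnahc7b each hold a core site upstream of the start, shown because the copies cannot be separated well by reads while these flanks differ:
Dnahc7b, core site, chr1:46066682-46066703, plus strand: ggagcacaGTTGCCacccaccc
Dnahc7a, core site, chr1:53706971-53706992, minus strand: tcctcacaGTTGCCtgccaccc

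RNA of most of these genes was present in the sorted pachytene spermatocytes, and a part from spermatid RNA was not tested. In Ctrl, 23 of the 28 (82.1%) had a mean above 1 TPM, against 40.6% of all rows, and the same number passed in each of the 4 libraries. Of these, 17 were above 10 TPM and 6 above 100 TPM, namely Rsph1, Tekt1, Rsph9, Dnaaf1, Tekt2 and Dnaic1. The median of the 28 Ctrl means was 18.5 TPM, against 0.257 TPM over all rows. Over the 23 above 1 TPM it was 32.8 TPM, against 9.22 TPM over the 10316 genes above 1 TPM in Ctrl or AZ20. The 28 genes together took 0.587% and 0.574% of all TPM in Ctrl and 0.570% and 0.457% in AZ20. Rsph1 alone made up 72.9% to 74.1% of that share.

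**Figure D1:**
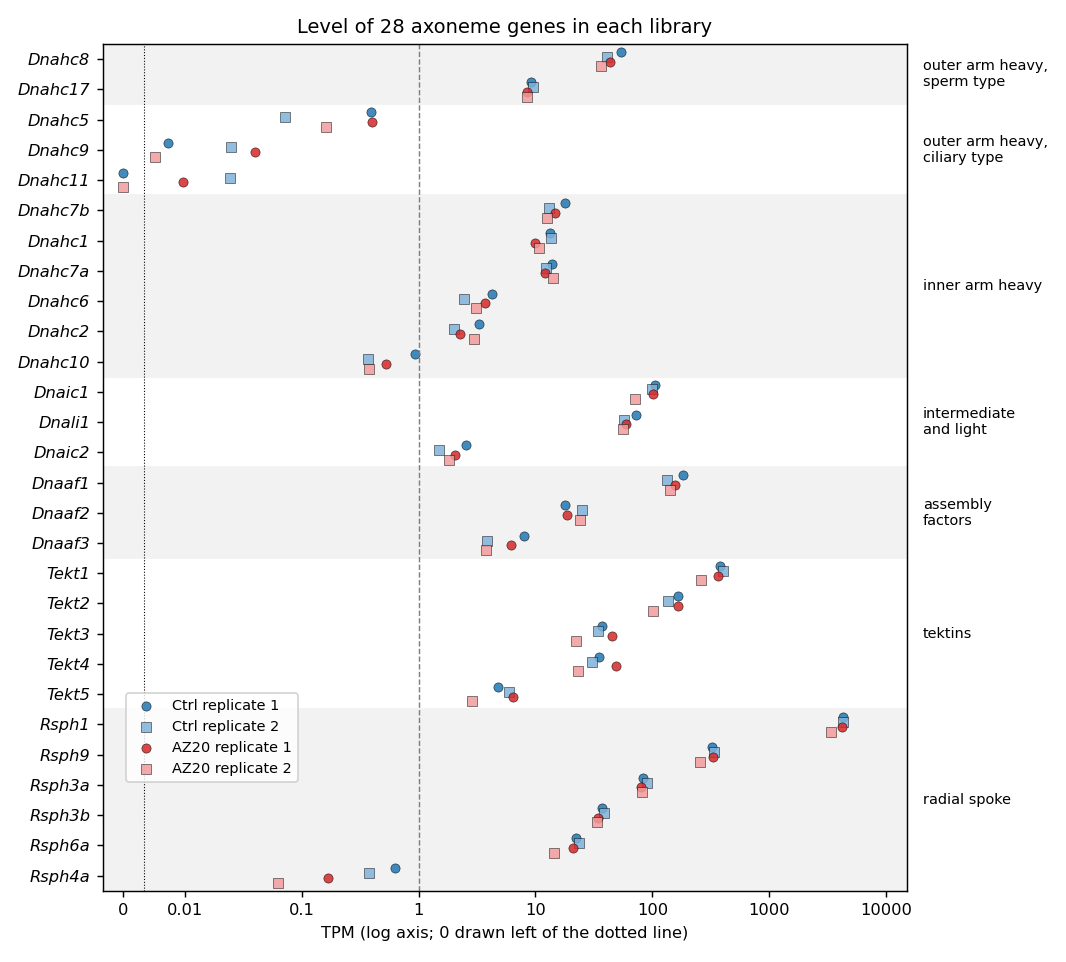
TPM of the 28 genes in each library (log axis, 0 drawn left of the dotted line), grouped by role, with Ctrl in blue, AZ20 in red, circles for replicate 1 and squares for replicate 2. The dashed line marks 1 TPM, Rsph1 lies farthest to the right, and the 3 ciliary-type outer arm chains lie below 1 TPM in every library.

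Outer arm heavy chains, the motors that set beat frequency, split into those known from the sperm tail and those known from respiratory cilia. Dnahc8 (Dnah8), a sperm-tail chain, was at 54.3 and 41.0 TPM in Ctrl and 43.3 and 36.6 TPM in AZ20. Dnahc17 (Dnah17), the other sperm-tail chain, was at 9.18 and 9.46 TPM in Ctrl and 8.45 and 8.49 TPM in AZ20. Dnahc8 thus exceeded Dnahc17 4.31 to 5.91 times in each library. The chains known from airway and embryonic node cilia were close to absent. Dnahc5 was at 0.394 and 0.0722 TPM in Ctrl and 0.401 and 0.161 TPM in AZ20, resting on 62, 13, 91 and 33 reads. Dnahc9 had 1 to 8 reads in a library, and Dnahc11 was at 0 in 2 of the 4 libraries and at 0.0246 TPM or below in the others. The 2 sperm-type chains together exceeded the 3 ciliary-type chains 158 and 413 times in Ctrl and 115 and 271 times in AZ20.

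Inner arm heavy chains, which shape the bend, were present at low to moderate levels. Dnahc7b (Dnah7b) was at 17.88 and 12.95 TPM in Ctrl and Dnahc7a (Dnah7a) at 13.7 and 12.2 TPM, and in AZ20 they were at 14.7 and 12.7 TPM and at 12.1 and 14.0 TPM. These 2 genes are near-identical copies and only uniquely aligned reads were kept, so the split between them is uncertain. Dnahc1 (Dnah1), whose loss gives short and irregular sperm tails, was at 13.2 and 13.6 TPM in Ctrl and 9.89 and 10.7 TPM in AZ20. Every AZ20 library lay below every Ctrl library for Dnahc1. Dnahc6 (Dnah6) had a Ctrl mean of 3.33 ± 1.26 TPM (SD, n = 2) and Dnahc2 (Dnah2) one of 2.65 ± 0.909 TPM (SD, n = 2). Dnahc10 (Dnah10) stayed below 1 TPM in all 4 libraries, between 0.371 and 0.932 TPM. Dnahc7a, Dnahc7b and Dnahc1 had overlapping Ctrl values, so their order is not resolved by these libraries.

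Intermediate and light chains differed strongly in level. Dnaic1, an outer arm intermediate chain, was at 106 and 99.2 TPM in Ctrl and 101 and 71.5 TPM in AZ20. Dnaic2, the other outer arm intermediate chain, was at 2.55 and 1.51 TPM in Ctrl and 2.04 and 1.81 TPM in AZ20. Dnaic1 exceeded Dnaic2 39.6 to 65.7 times within a library. The inner arm light intermediate chain Dnali1 was at 72.2 and 57.3 TPM in Ctrl and 59.5 and 55.6 TPM in AZ20.

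The assembly factors Dnaaf1, Dnaaf2 and Dnaaf3 act in the cytoplasm to fold and join dynein subunits before transport. Dnaaf1 was at 182 and 133 TPM in Ctrl and 156 and 140 TPM in AZ20. Dnaaf2 was at 17.9 and 25.2 TPM in Ctrl and 18.5 and 24.0 TPM in AZ20. Dnaaf3 was at 8.01 and 3.88 TPM in Ctrl and 6.13 and 3.80 TPM in AZ20. The Ctrl and AZ20 ranges overlapped for all 3, and the replicate 1 library was the higher of its condition for Dnaaf1 and Dnaaf3 and the lower for Dnaaf2.

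Tektins are filament proteins of the doublet lumen. Tekt1 was at 375 and 402 TPM in Ctrl and 365 and 262 TPM in AZ20, and Tekt2 at 164 and 135 TPM and at 166 and 102 TPM. Tekt3 was at 36.7 and 34.3 TPM in Ctrl and 44.9 and 22.3 TPM in AZ20, and Tekt4 at 34.9 and 30.7 TPM and at 49.2 and 23.1 TPM. Tekt5, the lowest of the family here, was at 4.81 and 5.91 TPM in Ctrl and 6.46 and 2.86 TPM in AZ20. The order Tekt1, Tekt2, then Tekt3 and Tekt4, then Tekt5 held in Ctrl, and the Tekt3 and Tekt4 values did not separate beyond their spread.

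Radial spoke genes held the most abundant transcript of the set. Rsph1, a spoke head protein gene on chromosome 17 from position 31255019 to 31277383 (GRCm38), was at 4280 and 4228 TPM in Ctrl and 4165 and 3391 TPM in AZ20. It ranked 19 among all rows by mean Ctrl TPM. Rsph9, also of the spoke head, was at 323 and 335 TPM in Ctrl and 329 and 256 TPM in AZ20, so that Rsph1 exceeded it 12.6 to 13.3 times in each library. The stalk genes Rsph3a and Rsph3b were at 83.7 and 89.1 TPM and at 37.0 and 38.2 TPM in Ctrl. They are near-identical copies, so their levels are uncertain in the same way as for Dnahc7a and Dnahc7b. Rsph6a, the spoke head paralog known from sperm, was at 22.3 and 23.4 TPM in Ctrl and 20.9 and 14.5 TPM in AZ20. Rsph4a, its counterpart in motile cilia, was at 0.625 and 0.380 TPM in Ctrl and 0.170 and 0.0626 TPM in AZ20, which are 23, 16, 9 and 3 reads. Rsph6a exceeded Rsph4a 35.7 and 61.5 times in Ctrl and 123 and 232 times in AZ20, on few Rsph4a reads.

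None of the 23 genes tested was called with AZ20. A call needed a change of at least 2-fold and an adjusted p under 0.05 in limma on log2(TPM + 1), and 0 genes rose and 0 fell, where 2.28% of the 10316 genes tested were called higher and 0.0485% lower. No gene of the 23 had an unadjusted p under 0.05, where 8.03% of all genes tested had one with a positive and 1.13% with a negative change. Other settings also called 0, but 1 gene had an unadjusted p under 0.05 with quantile normalization, 1 without a filter on low values and 3 without AZ20 replicate 1. Voom on the recovered reads gave 0 such genes with library totals, whereas an earlier voom fit with trimmed-mean scaling gave some. The called genes of the whole table were mostly X-linked, with 63.3% of 341 X-linked genes called higher against 0.101% of 9926 autosomal ones. All 23 genes are autosomal, so the count of 0 says nothing particular about them. The 2.28%, 8.03% and 1.13% include X-linked genes. For 21 of the 23 genes the 95% interval of the change lay within 2-fold in either direction. The exceptions were Tekt5 (-1.10 to 0.62 on the log2 scale) and Dnaaf3 (-1.07 to 0.71). The other 5 of the 28 genes were below the filter of 1 TPM and were not tested.

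The changes were small and mostly below 0. Of the 23 genes, 19 (82.6%) had a lower fitted value with AZ20, against 40.2% of all genes tested. The median change was -0.16 on the log2(TPM + 1) scale, against 0.07 over all genes tested and 0.06 over autosomal ones. It was -0.11 in the replicate 1 pair and -0.16 in the replicate 2 pair. Leaving out AZ20 replicate 2 moved the median to -0.05, leaving out AZ20 replicate 1 to -0.30 and leaving out Ctrl replicate 2 to -0.25. In 12 of 23 genes both pairs changed the same way. In 7 of 23 every AZ20 library lay below every Ctrl library, where 11.7% of all genes tested did. No gene of the 23 separated in the other direction, and over all genes tested 38.1% separated in either direction.

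Those 7 genes were Rsph1, Rsph3a, Rsph3b, Rsph6a, Tekt1, Dnahc1 and Dnahc17. The changes with limma standard errors were -0.37 ± 0.24 for Rsph6a (adjusted p = 0.755) and -0.36 ± 0.22 for Dnahc1 (adjusted p = 0.734). Tekt1 had a change of -0.33 ± 0.19 (adjusted p = 0.722) and Rsph1 one of -0.18 ± 0.13 (adjusted p = 0.796). In Dnahc1 both pairs moved alike, by -0.38 and -0.33. In Rsph6a, Tekt1 and Rsph1 the replicate 2 pair carried most of the difference, with -0.65 against -0.09, -0.62 against -0.04 and -0.32 against -0.04. The other 3 changes were -0.10 to -0.14. The highest fitted changes, in Dnahc6 and Tekt4, were 0.05 ± 0.31 and 0.04 ± 0.35, and both fell below 0 with quantile normalization. By class, the median change was -0.18 for sperm-type outer arm chains, 0.00 for inner arm chains, -0.16 for intermediate and light chains, -0.07 for assembly factors, -0.20 for tektins and -0.18 for radial spoke genes.

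**Figure D2:**
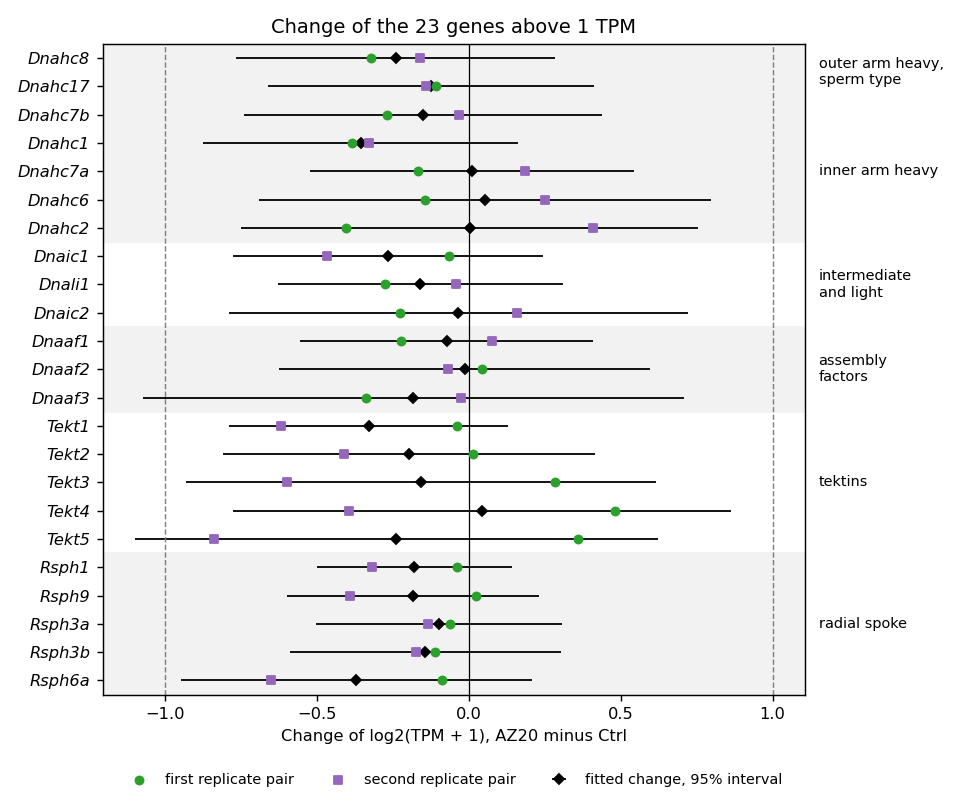
Fitted change of log2(TPM + 1), AZ20 minus Ctrl, for the 23 genes tested (black diamonds, bars are 95% intervals), with the difference in each replicate pair (green circles, the first pair; purple squares, the second). Dashed lines mark 2-fold, and every interval spans 0.

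The tektins differed between the AZ20 libraries. AZ20 replicate 2 was the lowest of the 4 libraries for all 5 tektins, and lower than AZ20 replicate 1 by a median of 0.95 on the log2(TPM + 1) scale. Against its own Ctrl library, AZ20 replicate 2 was lower in 5 of 5 tektins (median -0.60), whereas AZ20 replicate 1 was higher in 4 of 5 (median 0.28). The tektins summed to 615 and 608 TPM in Ctrl and to 631 and 412 TPM in AZ20. Radial spoke genes also had AZ20 replicate 2 lowest in 4 of 5, and below its own Ctrl library in 5 of 5 (median -0.32). In these genes AZ20 replicate 1 was lower than its Ctrl library in 4 of 5 (median -0.06). Over the 23 genes AZ20 replicate 2 was the lowest library in 14 (60.9%), against 24.2% of all genes tested. The spermatid markers summed to 897 and 295 TPM in the AZ20 libraries and to 437 and 182 TPM in the Ctrl libraries. In Ctrl, Tekt2, Tekt3 and Tekt4 were likewise higher in replicate 1, and Tekt1 and Tekt5 were higher in replicate 2. The part of spermatid RNA in the tektin difference was not tested.

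**Figure D3:**
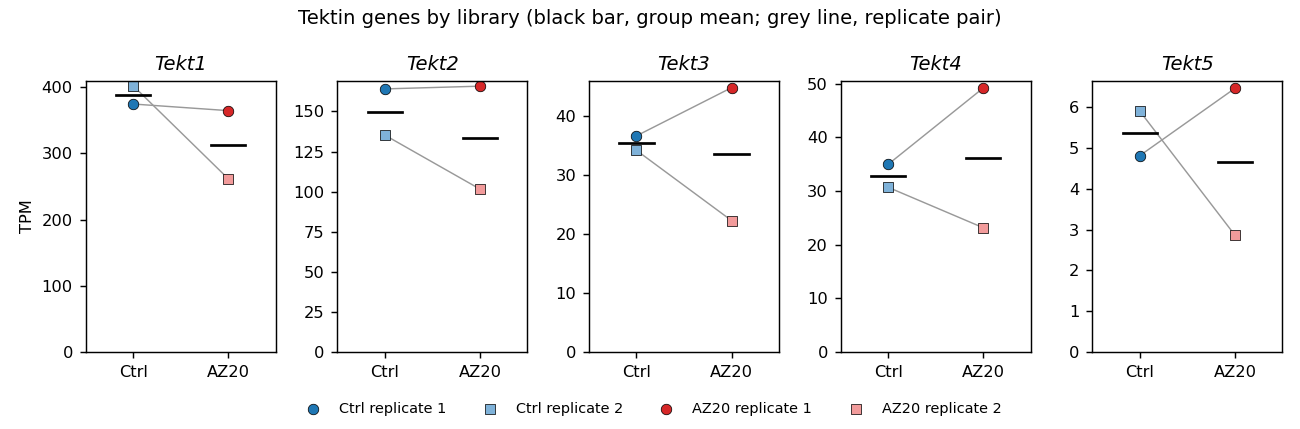
TPM of the 5 tektin genes in each library (axes from 0, black bars are group means, grey lines join libraries of one pair). AZ20 replicate 2 is the lowest point in each panel, and AZ20 replicate 1 is above its paired Ctrl library for Tekt2 to Tekt5.

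Genes with the same current names but older symbols in the table extend the picture. Through RefSeq synonyms 40 rows for 39 genes were found, a set made after the table was seen, and 35 of them were above 1 TPM and 8 above 100 TPM in Ctrl. The most abundant was 1700007G11Rik (Cfap299), at 1226 and 932 TPM in Ctrl and 878 and 769 TPM in AZ20. Ccdc104 (Cfap36) had a Ctrl mean of 702 ± 15.0 TPM (SD, n = 2), and 1700026D08Rik (Cfap161), a microtubule inner protein gene, 629 ± 40.4 TPM (SD, n = 2). The central apparatus and doublet genes Wdr96 (Cfap43) and A330021E22Rik (Cfap69), whose loss disturbs the sperm tail, had Ctrl means of 48.8 and 65.5 TPM. The assembly factor Dyx1c1 (Dnaaf4) was at 132 TPM, Pih1d3 (Dnaaf6) at 79.7 TPM and the light chain Dnalc1 (Dnal1) at 8.90 TPM. Of the 34 autosomal rows tested, 0 were called in limma, where 0.101% of all autosomal genes tested were called higher. Over all genes tested, X-linked ones included, 8.03% had an unadjusted p under 0.05 with a positive change and 1.13% with a negative one. Among the 34 rows, 1 had an unadjusted p under 0.05. This was 1700026D08Rik, at 658 and 601 TPM in Ctrl and 520 and 433 TPM in AZ20, with a change of -0.41 ± 0.16 (limma, adjusted p = 0.494). Their median change was -0.04. The core site was present in 15 of the 32 genes with a window (46.9%), against 14.1% of all genes with a window. The X-box pattern of fixed length was present in 7 of 32 (21.9%), against 1.55%.

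A further list of 101 genes under other symbols was tested in 96 rows, of which 93 were autosomal. Besides genes of the axoneme, it holds intraflagellar transport genes, dynein assembly genes, cytoplasmic dynein chains and 12 transcription regulators. None of the 93 was called in limma, where 0.101% of all autosomal genes tested were called higher, so this count says nothing particular about the list. Their median change was -0.08. Over all genes tested, X-linked ones included, 8.03% had an unadjusted p under 0.05 with a positive change and 1.13% with a negative change. Of the 93, 2 had such a p with a positive and 1 with a negative change. These were Spef2, a central pair gene, with a change of -0.51 (adjusted p = 0.500), Nme5, with 0.31 (adjusted p = 0.535), and 1700007K13Rik, with 0.74 (adjusted p = 0.428), all by limma. Of 24 intraflagellar transport genes, which carry subunits into the flagellum, all were above 1 TPM and 0 were called, with Ift43 the highest at 1059 TPM. Ropn1l, a radial spoke gene, was at 1480 TPM, the dynein light chain gene Dynlrb2 at 1437 TPM, the microtubule inner protein gene Enkur at 792 TPM and the nexin-dynein regulatory complex gene Lrrc48 at 144 TPM. The assembly gene Pih1d1 was at 292 TPM and the docking gene Ttc25 at 27.3 TPM.

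The regulators of ciliary genes, 12 of the 101, differed widely in level. Crem and Tcfl5, which are germ-line regulators, were the highest at Ctrl means of 137 and 134 TPM. Rfx2 was at 38.7 and 33.7 TPM in Ctrl and 41.0 and 42.7 TPM in AZ20, and the difference was not called. Foxj1 had 2, 1, 0 and 12 reads in the 4 libraries, at most 0.355 TPM. Rfx3 was at 0.236 to 0.661 TPM and Rfx1 at 0.201 TPM or less. Foxj1, Rfx1 and Rfx3 were named after their values were seen. None of the 9 regulators that passed the filter was called, where 0.101% of all autosomal genes tested were called higher.

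The genes of these further lists called with AZ20 were X-linked and outside the 28. Dynlt3, a cytoplasmic dynein light chain gene, was at 1.24 and 0 TPM in Ctrl and 92.7 and 71.3 TPM in AZ20. Ribc1, a doublet inner protein gene, was at 1.12 and 1.09 TPM in Ctrl and 71.4 and 61.6 TPM in AZ20, from 17 and 19 reads to 1563 and 1218. Efhc2, another doublet inner protein gene, was at 0.194 and 0 TPM in Ctrl and 12.1 and 6.80 TPM in AZ20. The changes of log2(TPM + 1) were 5.78 ± 0.40 for Dynlt3 (limma, adjusted p = 0.000275), 5.00 ± 0.23 for Ribc1 (adjusted p = 4.98e-05) and 3.21 ± 0.35 for Efhc2 (adjusted p = 0.00297). Dynlt3 and Efhc2 passed the filter through their AZ20 values alone, so they had to differ and their adjusted p-values add no support. The Ctrl and AZ20 values did not overlap for any of the 3, where 38.1% of all genes tested separated in either direction. Of the X-linked genes tested, 63.3% were called higher. Leaving out either AZ20 library left 0 of the 3 called, when no gene of the whole table was, and leaving out Ctrl replicate 2 left 2. With a pseudocount of 0.01 the calls of Dynlt3 (limma, adjusted p = 0.182) and Efhc2 (adjusted p = 0.118) were lost, while 171 genes of the table were called higher.

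**Figure D4:**
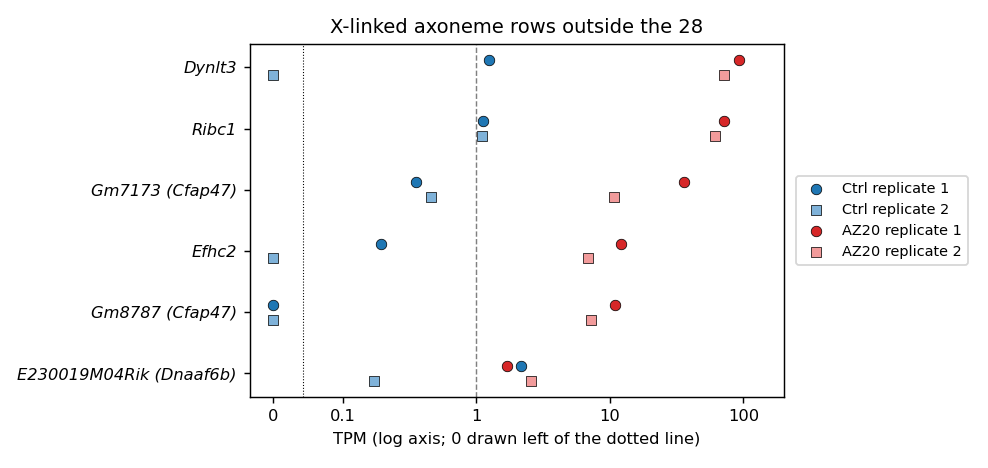
TPM in each library (log axis, 0 drawn left of the dotted line) of the 6 X-linked rows of the further lists, with Ctrl in blue and AZ20 in red. All AZ20 points lie above the Ctrl points in 5 of the 6 rows, and in E230019M04Rik they overlap.

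One X-linked gene of the Cfap family was listed in 2 rows. Gm7173 and Gm8787 both carry the current symbol Cfap47. Gm7173 was at 0.350 and 0.459 TPM in Ctrl and 36.2 and 10.7 TPM in AZ20, and Gm8787 at 0 and 0 TPM and at 10.98 and 7.18 TPM. For Gm8787 this is at least 45.3-fold higher against a floor of 3 reads per library. Both were called higher by limma (adjusted p = 0.00824 and adjusted p = 0.00147), with changes of 3.89 ± 0.52 and 3.31 ± 0.32. The Gm7173 call was kept by voom with the replicate block (adjusted p = 4.57e-05). It was lost by voom without the block (adjusted p = 0.0958) and without a filter on low values (limma, adjusted p = 0.109). It was also lost without Ctrl replicate 1 (adjusted p = 0.0945 by limma) or Ctrl replicate 2 (adjusted p = 0.146), when 184 and 158 genes of the table were still called higher. Without either AZ20 library both rows lost the call. Dynlt3, Efhc2, Gm7173 and Gm8787 passed the filter through their AZ20 values alone, so they had to differ. E230019M04Rik (Dnaaf6b), the X-linked copy of Pih1d3, was at 2.17 and 0.172 TPM in Ctrl and 1.69 and 2.58 TPM in AZ20, and the difference was not called (0.69 ± 0.50, limma, adjusted p = 0.791). Its autosomal copy was 43.5 to 378 times higher within a library.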

How the data were processed

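The deposited table holds TPM for 2 Ctrl and 2 AZ20 libraries. These were made by the authors from trimmed reads (Trimmomatic 0.39) that had a unique STAR 2.5.4b alignment to GRCm38 and were counted on UCSC refGene by featureCounts 2.0.1, and each column sums to 1000000. The sources give different culture temperatures. No strand setting is given in the sources used here. 92 rows without a gene name were left out.

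Whole reads were recovered from the TPM steps for all 16857 genes above 0. The multiple was checked against exon length within 5% for 11704 of them, and 2360 were raised by a whole factor. TPM carries no depth of its own, and read counts cover counting error only. Genes with a mean above 1 TPM in Ctrl or AZ20 were fitted as log2(TPM + 1), a scale that understates changes of low genes, in limma 3.58.1 under R 4.3.3, using an intensity trend and Benjamini-Hochberg adjustment over 10316 genes. The steps were tested on simulated data. Other values came from Python 3.11.15. P-values measure the spread between these libraries only, and with 2 a group no permutation test can pass 0.05.

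Groups came from the sample titles. Replicate numbers pair libraries of a mouse per the study's methods. Deviations of same-numbered libraries correlated at 0.23 over 9926 autosomal genes, but at 0.04 over the 23 axoneme genes tested. The main model had no replicate block. Named genes were all heavy chains, the 5 highest of each other class, called or X-linked genes, the 5 highest and lowest changes alike in both pairs and the 3 highest of each further class. Others are named where a count of them is small. The members, lists and tests were chosen with earlier results of these data known. Alternatives were 2 other pseudocounts, other filters, the replicate block, other scalings, no trend, voom on recovered reads with library totals, the same voom with the block (added after seeing the data) and leaving out each library.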

Additional observations from a re-analysis of the deposited data

How the results depend on the processing

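Of the 28 genes, 0 were called higher and 0 lower under each of the 14 other settings, and 23 stayed above 1 TPM in Ctrl under the scalings and left-out libraries run. The median change of the genes tested, -0.16, was -0.27 with quantile normalization (where all genes had -0.07 in place of 0.07), -0.17 with voom on recovered reads, -0.18 with voom and the replicate block, and -0.3047 to -0.0506 with 1 library left out. The replicate block on log2(TPM + 1) left it at -0.16, with 3 genes of the further list of 101 called, and changed no call named here. Those 3 became 1 with a pseudocount of 0.01 (Dynlt3, adjusted p = 0.182, and Efhc2, adjusted p = 0.118, were lost) and 0 to 3 with 1 library left out. Over 33 named genes, 412 of 458 values kept their direction and call, 29 changed direction and 17 lost the call.

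None of the changes that turned direction was called in any setting. With quantile normalization Dnahc7a was at -0.18, Dnahc2 at -0.27, Dnahc6 at -0.22 and Tekt4 at -0.0649. With voom Dnahc7a was at -0.0061, and with voom and the replicate block it was at -0.0060 and Dnahc2 at -0.0143. A voom fit with trimmed-mean scaling of the recovered reads was run first and replaced, after its result was seen, by the fit with library totals. Both fits used the same reads, which are recovered from TPM and are no deposited counts. The replaced fit also called none of the 28 genes, but its median change was lower and a few genes had an unadjusted p under 0.05. With 1 library left out, the ranges were -0.37 to 0.0682 for Dnahc7b, -0.0851 to 0.11 for Dnahc7a, -0.25 to 0.26 for Dnahc2, -0.25 to 0.35 for Dnahc6, -0.28 to 0.22 for Dnaic2 and -0.32 to 0.0059 for Dnali1. They were -0.30 to 0.15 for Dnaaf1, -0.25 to 0.22 for Dnaaf2, -0.62 to 0.26 for Dnaaf3 and -0.0314 to 1.4025 for E230019M04Rik. For tektins they were -0.55 to 0.15 (Tekt2), -0.65 to 0.33 (Tekt3), -0.48 to 0.57 (Tekt4) and -0.71 to 0.24 (Tekt5). The cause was not tested. With 1 library left out, the lone sample of a group is assumed to vary like the others. Few reads limit Dnahc9, Dnahc11 and Rsph4a.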
